A study of Mus musculus with 16 samples.

Results

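The comparison set all 12 mice that had received dextran sulphate sodium (DSS) against the 4 mice that drank water alone, and it used all 16 arrays of the series. The DSS mice were the 6 Control and the 6 5-ASA mice, the water-alone mice were the 4 Sham mice, and each mouse was placed by the group in its sample title. Of the 23362 genes tested, the genes of interest were the 17805 (76.2%) in which the means of Control and 5-ASA lay on the same side of the Sham mean. The question asked of each gene was what the DSS mice shared, with or without the drug. The Control and 5-ASA differences are taken from the same Sham mice and are therefore not independent. The spread of the Sham mice alone can place Control and 5-ASA on the same side. Agreement of Control and 5-ASA in side or size, here and below, is therefore not separate evidence of a shared effect.

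All 16 mice carried the ApcMin/+ genotype, in which 1 copy of the tumour suppressor Apc is inactivated by a germline mutation, so the Sham mice are tumour-prone animals and not healthy ones. Non-tumour colon, told from tumour by eye, was taken at day 28. Control mice drank 1.5% (w/v) DSS for 3 days and were dosed with saline. The 5-ASA mice had the same DSS course and were dosed with 5-aminosalicylic acid, an anti-inflammatory drug of ulcerative colitis. The labels differ on the dosing, which 1 field places in the colorectum over 28 days and another in the drinking water over the 25 days after DSS. Neither field gives Sham mice any dosing, so an effect of DSS and one of the dosing procedure cannot be told apart here. Strain background, sex and age were not given in the labels used here. Diarrhea scores at day 28 were 0, 0.5, 0.5 and 0.5 in Sham, ran from 0.5 to 1.5 in Control and from 0 to 0.5 in 5-ASA.

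DSS is toxic to the colonic epithelium and opens the mucosa to luminal bacteria. After it is withdrawn, the mucosa is rebuilt by division of crypt cells, which copy their DNA with the MCM helicase and its partners and then separate their chromosomes on the mitotic spindle. The colon wall also holds lymphoid follicles, which are rich in B cells and unevenly spaced, and an epithelium that secretes antimicrobial proteins when it is injured. In bulk tissue such as this, fewer cells of a type and less RNA per cell cannot be told apart.

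The arrays read colon: 25 of 27 listed absorptive colonocyte genes, 17 of 18 goblet cell genes and 14 of 17 genes of colon position were measured, against 9 of 16 genes of small intestine and pancreas. Arrays correlated with each other at r from 0.958 to 0.994 over the genes tested, and no spot was saturated. Each slide held 2 Sham, 3 Control and 3 5-ASA arrays in 2 rows of 4. All 4 Sham arrays lay in the first row with 4 Control arrays, and the other 2 Control arrays and all 6 5-ASA arrays lay in the second row. First-row arrays had 59.8% to 65.2% of spots well above background and second-row arrays 53% to 57.7%. Sham 1 stood apart from the other Sham mice in B cell and follicle genes, Control 4 stood apart from the other DSS mice in the same genes, and 5-ASA 4 lay near Sham in genes of proliferation. Group and array row overlap, and the differences below are followed where it matters by the value with array row as a covariate and by the value within the first row (4 Sham against 4 Control). On both slides, Sham lay in columns 1 and 2 of that row and Control in columns 3 and 4. A difference within the first row therefore cannot be told apart from one of array column. The row covariate rests on Control mice alone, as only Control had arrays in both rows. Control 3 and Control 6, in the second row, had diarrhea scores of 1.5 and 1. Control 1, 2, 4 and 5, in the first row, had 0.5, 0.5, 1 and 0.5. Values with array row as a covariate therefore cannot separate row from differences between these Control mice.

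No gene passed the test. With limma and Benjamini-Hochberg adjustment, 0 of 23362 genes (0%) were called between DSS and Sham, and the smallest adjusted p was 0.235. With the outer spot rows of the arrays kept, limma called 16 genes, 1 higher and 15 lower, Mcm8 and Osgin1 among them. The smallest limma adjusted p there was 2.69e-06 over 24543 genes, and the called genes of smallest p were others, Wdr72 among them. A Benjamini-Hochberg adjusted p also depends on the p-values of the other genes tested. The call is therefore not separate evidence for Mcm8 and Osgin1. At an unadjusted p under 0.05 there were 2646 genes (11.3%), of which 1645 (7.04%) were higher and 1001 (4.28%) lower in DSS, and without Sham 3 there were 1571. The higher genes thus made up 62.2% of them, but 42.9% with median scaling and 50.6% with quantile scaling of the arrays. Between each DSS group and Sham, limma also called 0 genes, with 2080 (8.9%) at an unadjusted p under 0.05 for Control and 2479 (10.6%) for 5-ASA. Between 5-ASA and Control it called 0, with 943 (4.04%) at an unadjusted p under 0.05. The median standard error of a difference was 0.14 on the log2 scale, set by 4 Sham arrays, so the text below gives values and does not call any gene changed. The p-values measure the spread between these mice.

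In 91 genes (0.39%) every DSS mouse lay on the same side of every Sham mouse, in 78 of them (0.334%) above and in 13 (0.0556%) below. With median scaling of the arrays there were 32, 14 above and 18 below, and with quantile scaling 87, 65 above and 22 below. The excess of higher genes was thus absent with median scaling and smaller with quantile scaling. The median absolute difference of the 91 genes was 0.33. Leaving out a mouse can only keep or raise the count of 91, and the rise differed between mice. Without 5-ASA 4 the count was 469, without Sham 1 it was 333, without Sham 2, 3 or 4 it was 211, 173 or 251, and without 5-ASA 3 it was 143. Of the 91 genes, 66 had a name matched by accession.

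The 12 named genes with the smallest p among those higher in every DSS mouse are described first. Mcm8, a helicase that acts in repair of broken and stalled replication forks, had the smallest p of all genes. Its probe lies at chr2:132669680-132669739 (mm9, plus strand). Levels are log2 signals from which the upper quartile (75th percentile) of the array was subtracted. Mcm8 was at -2.72, -2.64, -2.87 and -2.99 in Sham 1 to 4, and from -2.39 through a median of -2.19 to -1.62 in the 12 DSS mice. The lowest DSS mouse was above the highest Sham mouse, and the levels in 5-ASA reached higher than those in Control. The difference was 0.68 (SE 0.11), with an unadjusted p of 1.6e-05 and a limma adjusted p of 0.235. It was 0.52 in Control and 0.84 in 5-ASA, 0.68 with array row as a covariate and 0.52 within the first row. A second probe of the gene gave 0.75.

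Gins2, a subunit of the GINS complex that activates the replicative helicase, was at -0.74, -0.72, -0.85 and -0.64 in Sham 1 to 4 and from -0.49 through -0.12 to 0.69 in DSS mice. Its groups did not overlap, and the difference was 0.78 (SE 0.22), 0.70 with array row as a covariate. Pold2, a subunit of the replicative DNA polymerase delta, was at 0.13, 0.12, 0.07 and 0.15 in Sham and from 0.19 through 0.57 to 1.19 in DSS, a difference of 0.50 (SE 0.15). The 4 Sham mice lay within a narrow band in both genes, while the DSS mice spread widely above it. Fignl1, an ATPase of homologous recombination, was at 0.18, 0.36, 0.02 and 0.31 in Sham and from 0.44 through 1.00 to 2.08 in DSS, a difference of 0.94 (SE 0.25).

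Cenpm and Cenpt, both parts of the inner kinetochore that ties chromosomes to the spindle, were likewise higher in every DSS mouse. Cenpm was at -2.56, -2.57, -2.85 and -2.49 in Sham and from -2.36 through -1.86 to -1.18 in DSS, a difference of 0.87 (SE 0.23) that was 0.68 with array row as a covariate. Cenpt was at -0.94, -0.76, -0.89 and -0.83 in Sham and from -0.75 through -0.39 to 0.14 in DSS, a difference of 0.46 (SE 0.14), so that its lowest DSS mouse lay just above its highest Sham mouse. Tube1 encodes epsilon-tubulin, a protein of the centrosome. It was at -1.18, -1.24, -1.23 and -1.28 in Sham and from -1.05 through -0.62 to 0.13 in DSS, a difference of 0.71 (SE 0.18). The limma adjusted p was 0.373 for each of the 6 genes from Gins2 to Tube1. Tfdp1, the partner through which E2F factors bind DNA, also did not overlap between the groups, with a difference of 0.49.

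The remaining genes of these 12 had smaller differences. Trmt44, a tRNA methyltransferase, was at -2.69, -2.62, -2.91 and -2.71 in Sham and from -2.54 through -2.29 to -2.12 in DSS, a difference of 0.42 (SE 0.09). Hspa9, a chaperone of the mitochondrial matrix, differed by 0.38, Slc33a1, the acetyl-CoA transporter of the endoplasmic reticulum, by 0.30 and Tmed1, a cargo receptor of the early secretory pathway, by 0.28. Ifitm2, an interferon-induced membrane protein, differed by 0.26, and by -0.07 with both array row and array column as covariates.

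**Figure D1:**
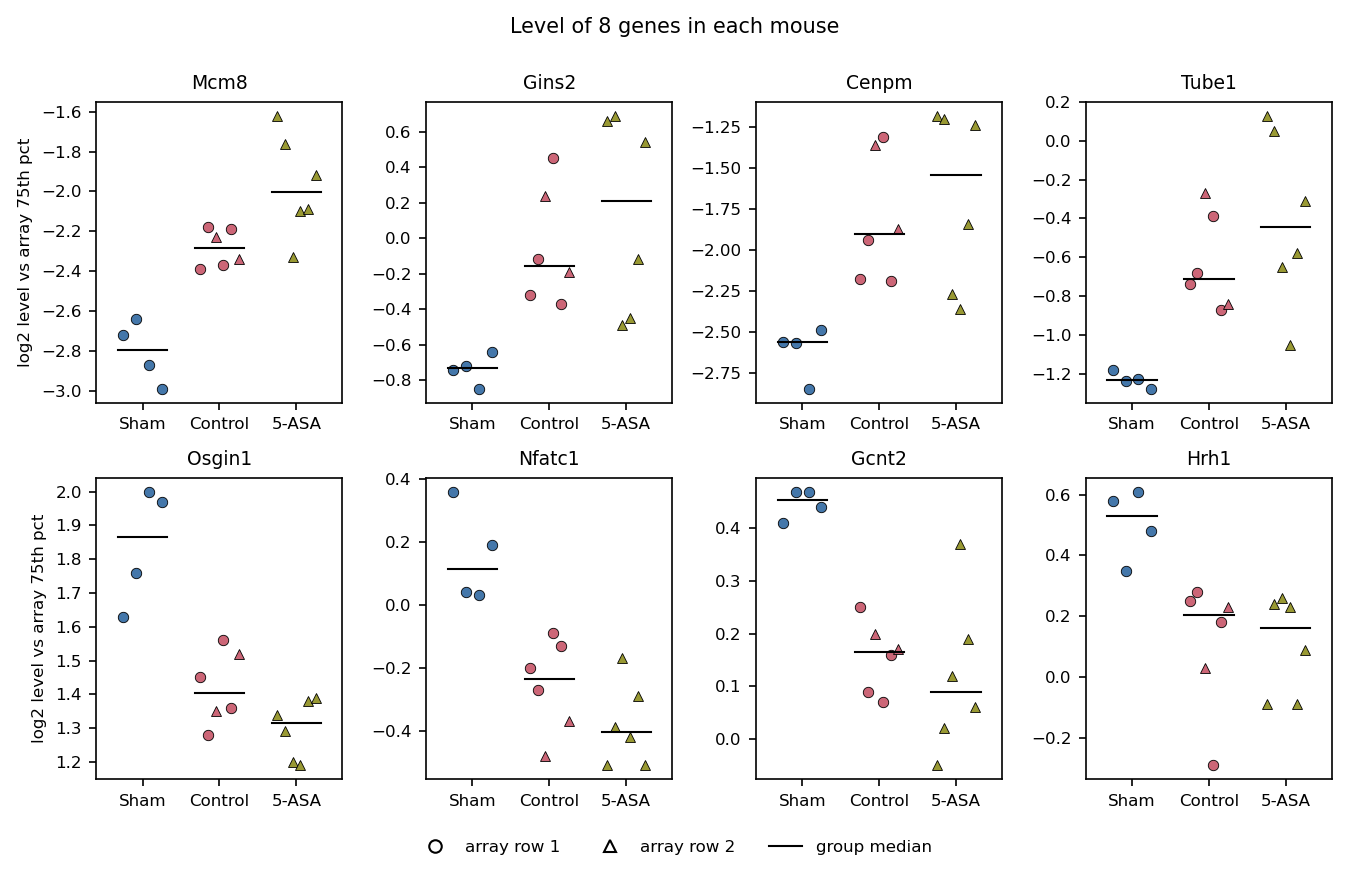
Level of 8 genes without overlap between DSS and Sham in each mouse, as log2 signal after subtraction of the array's upper quartile; circles are arrays of the first row, triangles arrays of the second row, and lines group medians. Mcm8, Gins2, Cenpm and Tube1 lie higher in all 12 DSS mice than in all 4 Sham mice, and Osgin1, Nfatc1, Gcnt2 and Hrh1 lie lower, with differences from -0.48 to 0.87.

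The same direction held through the list of DNA replication and nucleotide supply. Of its 30 genes 29 were measured, and 29 of 29 had a positive difference in both Control and 5-ASA, where 39.5% of all genes did. The Control and 5-ASA differences use the same Sham arrays, so their agreement does not count as a repeat. At an unadjusted p under 0.05 and higher there were 24 of 29 (82.8%), against 7.04% of all genes, and limma called 0 of the 29. The median difference was 0.62 against 0.003 over all genes, 0.58 in Control and 0.63 in 5-ASA. It was 0.64 with array row as a covariate, 0.605 within the first row, 0.715 on slide 1 and 0.558 on slide 2. With 1 mouse left out it ran from 0.54 (without 5-ASA 1) to 0.68 (without 5-ASA 4). Only Gins2 had no overlap between the groups.

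Within that list, the helicase subunits Mcm2 and Mcm4 illustrate the pattern. Mcm2 was at 0.37, 0.62, 0.23 and 0.31 in Sham and from 0.23 through 0.99 to 1.70 in DSS, a difference of 0.59 (SE 0.20). Mcm4 was at 2.01, 2.25, 2.18 and 2.18 in Sham and from 2.09 through 2.71 to 3.54 in DSS, a difference of 0.62 (SE 0.20). In both genes 5-ASA 4 was the lowest DSS mouse and lay among the Sham mice. Mcm10, which helps to start the replication fork, was at 0.76, 0.53, 0.26 and 0.73 in Sham and from 0.35 through 1.48 to 2.57 in DSS, a difference of 0.96 (SE 0.30). Uhrf1, which carries DNA methylation to the new strand, was at 1.22, 1.47, 1.26 and 1.42 in Sham and from 1.26 through 2.11 to 3.09 in DSS, a difference of 0.82 (SE 0.26). Rrm2, a subunit of ribonucleotide reductase, had the highest difference of the list at 1.1 (SE 0.40). Pcna, the sliding clamp of the polymerases, was at 0.39 (SE 0.19) and did not reach an unadjusted p of 0.05.

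Mitosis genes differed more in value. All 30 listed genes of mitosis and spindle were measured, and 30 of 30 were higher in both DSS groups. Of them 29 (96.7%) had an unadjusted p under 0.05, against 7.04% of all genes higher at that p, with 0 called by limma. The median difference was 0.92, 0.725 in Control and 1.12 in 5-ASA, 0.72 with array row as a covariate and 0.63 within the first row. With 1 mouse left out it ran from 0.70 (without Sham 3) to 1.03 (without Sham 2). With array row and array column together as covariates it was -0.27 and 4 of 30 genes were higher, while the replication list remained at 0.48 with 28 of 29 higher. The sign of the mitosis median thus differed once array column was in the model. Standard errors were larger in that model, 0.76 against 0.23 for Cenpm and 0.37 against 0.11 for Mcm8. Values with array row and column as covariates are therefore imprecise, here and below.

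Ube2c, the ubiquitin-conjugating enzyme through which the anaphase-promoting complex works, was at 1.67, 2.12, 1.30 and 2.17 in Sham and from 2.01 through 2.92 to 3.75 in DSS. The difference was 1.07 (SE 0.29), 0.91 in Control and 1.23 in 5-ASA. Aurka, a kinase of the spindle pole, was at 1.25, 1.45, 0.49 and 1.14 in Sham and from 1.11 through 2.07 to 3.25 in DSS, a difference of 1.12 (SE 0.33). Control 1 and 5-ASA 4 lay below the highest Sham mouse in Ube2c, and 5-ASA 4 alone did in Aurka. Ect2, which positions the cleavage furrow, differed by 0.86 (SE 0.25) and Foxm1, a transcription factor of the G2 phase, by 1.07 (SE 0.34). Mki67, the marker of cycling cells, was at 3.53, 3.89, 3.19 and 4.01 in Sham and from 3.68 through 4.28 to 5.25 in DSS, a difference of 0.78 (SE 0.26). Top2a, which untangles sister chromatids, was at 0.36, 0.63, -0.26 and 0.50 in Sham and from 0.43 through 1.20 to 2.43 in DSS, a difference of 1.1 (SE 0.35). Gtse1, listed with the p53 targets and itself a protein of the G2 phase and the spindle, differed by 1.26 (SE 0.46). With array row and column as covariates Ube2c was at -0.525, Mki67 at -0.24 and Ect2 at -0.10.

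Promoters of 2 of these genes are shown because genes of the cell cycle are classically controlled through short promoter motifs. The sequences are the 250 bases before the first listed start of each gene in RefSeq (GRCm38.p6), written 5′ to 3′ on the gene's strand. For Cenpm, at chr15:82244337-82244586 on the minus strand, capitals mark a CHR element (TTTGAA or TTCGAA) with its first base at -83 and an E2F site (TTTCGCGC, TTTGGCGC or TTTCCCGC) at -71. For Ube2c, at chr2:164769679-164769928 on the plus strand, capitals mark a CHR element at -29 and 6 CCAAT boxes, of which a pair overlaps. Both strands were searched, and CCAAT boxes are not marked in Cenpm.
Cenpm: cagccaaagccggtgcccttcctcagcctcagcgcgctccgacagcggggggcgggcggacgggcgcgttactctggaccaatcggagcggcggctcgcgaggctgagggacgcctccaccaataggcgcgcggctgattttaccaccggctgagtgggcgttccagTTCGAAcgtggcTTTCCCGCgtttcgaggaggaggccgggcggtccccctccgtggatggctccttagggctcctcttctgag
Ube2c: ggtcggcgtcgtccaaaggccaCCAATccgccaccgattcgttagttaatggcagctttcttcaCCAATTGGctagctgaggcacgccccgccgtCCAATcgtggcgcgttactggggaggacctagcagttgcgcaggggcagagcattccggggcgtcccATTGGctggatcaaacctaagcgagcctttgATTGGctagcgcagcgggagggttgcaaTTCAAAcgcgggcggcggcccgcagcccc

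Over the list members that had a promoter in the table, the E2F letters were in 6 of 23 replication promoters (26.1%) and in 1 of 23 mitosis promoters (4.35%), against 1.59% of 27025 promoters of the same length. The CCAAT box was in 14 of 23 replication promoters (60.9%) and 20 of 23 mitosis promoters (87.0%), against 34.5% of all. The CHR letters were in 5 of 23 (21.7%) and 9 of 23 (39.1%), against 17.4%. These are matches of letters, and binding was not measured.

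**Figure D2:**
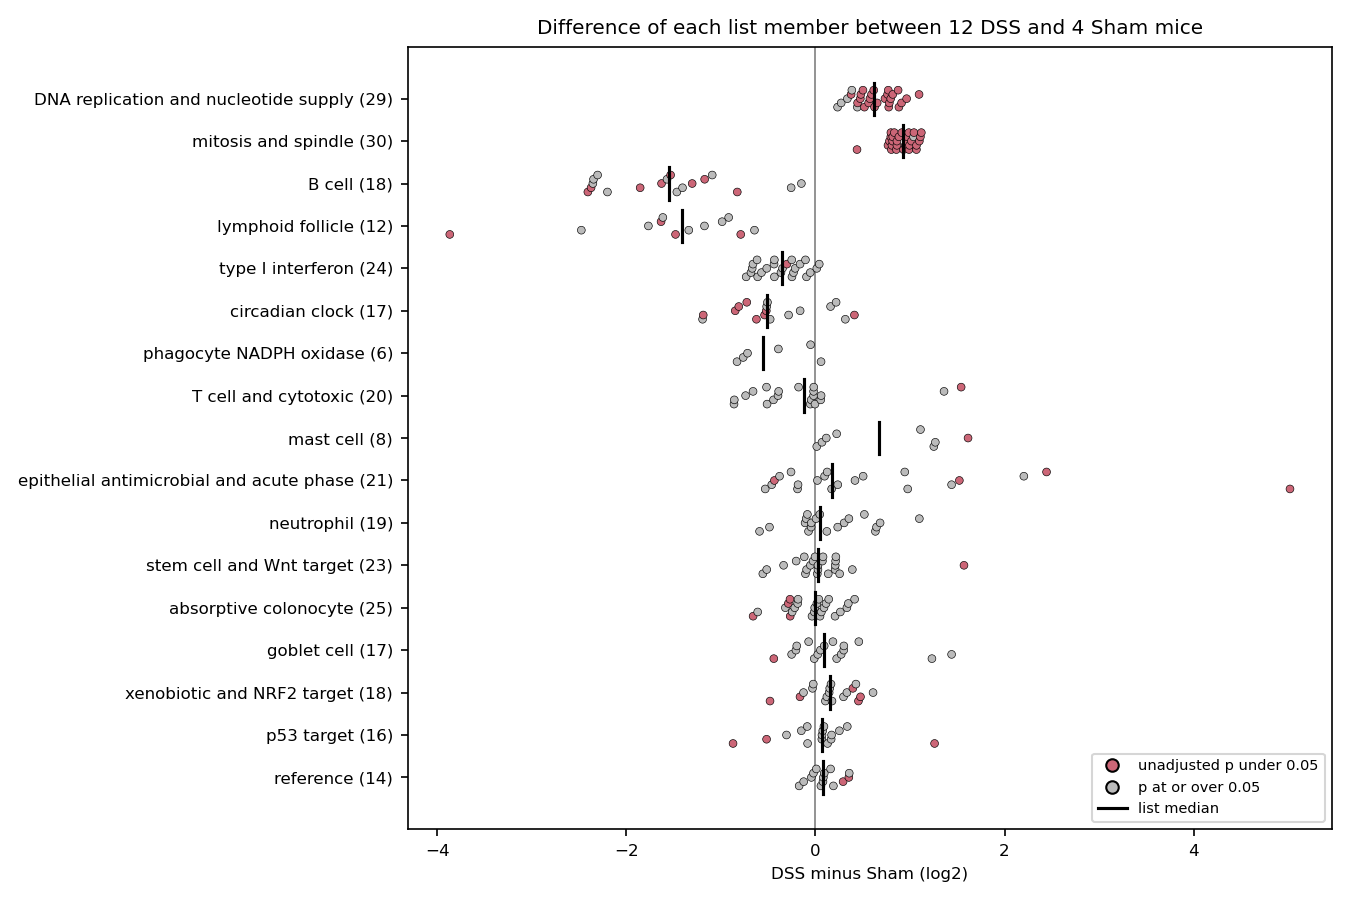
DSS minus Sham on the log2 scale for each measured member of 17 gene lists, with the number measured in brackets; red points have an unadjusted p under 0.05, grey points do not, and black bars are list medians. All 29 replication and all 30 mitosis genes lie right of 0, and all 18 B cell and all 12 lymphoid follicle genes lie left of it.

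Per mouse, the mean deviation of the 29 replication genes was -0.476, -0.396, -0.601 and -0.418 in Sham 1 to 4. It ran from -0.156 through a median of 0.026 to 0.589 in Control and from -0.579 through 0.127 to 0.959 in 5-ASA. All 6 Control mice lay above all 4 Sham mice, and so did 5 of 6 5-ASA mice, while 5-ASA 4 lay within Sham. The mitosis genes were at -0.677, -0.358, -1.303 and -0.401 in Sham, from -0.422 through -0.005 to 0.5 in Control and from -0.686 through 0.424 to 1.137 in 5-ASA. Control 1 and 5-ASA 4 fell among the Sham mice.

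**Figure D3:**
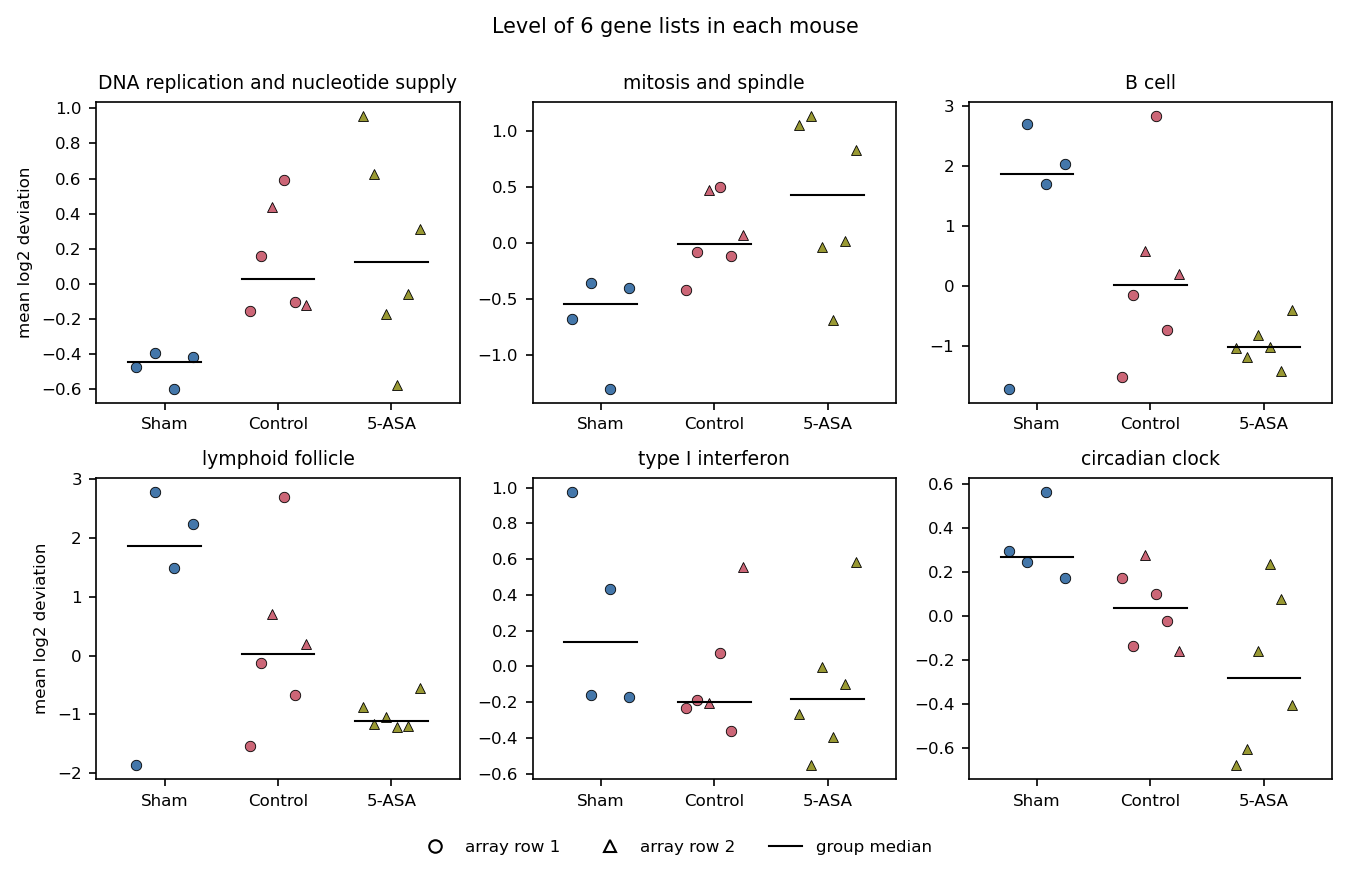
Mean deviation of a list's measured genes from their mean over all 16 arrays, in log2 units, for 6 lists in each mouse; circles are arrays of the first row, triangles arrays of the second row, and lines group medians. In replication, all Control mice and 5 of 6 5-ASA mice lie above Sham, and in B cell and lymphoid follicle Sham 1 lies far below the other Sham mice and Control 4 far above the other DSS mice.

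Among the lower genes, Osgin1 had the smallest p. Osgin1 is an oxidative stress response gene that restrains growth, and its probe lies at chr8:121970077-121970136 (mm9, plus strand). It was at 1.63, 1.76, 2.0 and 1.97 in Sham 1 to 4 and from 1.19 through 1.36 to 1.56 in DSS mice, so that the highest DSS mouse lay just below the lowest Sham mouse. The difference was -0.48 (SE 0.08), with an unadjusted p of 2.0e-05 and a limma adjusted p of 0.235. It was -0.42 in Control, -0.54 in 5-ASA, -0.50 with array row as a covariate and -0.43 within the first row.

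Nfatc1, a calcium-regulated transcription factor, was at 0.36, 0.04, 0.03 and 0.19 in Sham and from -0.51 through -0.33 to -0.09 in DSS, a difference of -0.47 (SE 0.09) that was -0.31 with array row as a covariate. A second Nfatc1 probe gave -0.13. Gcnt2, which builds branched I-antigen glycans, was at 0.41, 0.47, 0.47 and 0.44 in Sham and from -0.05 through 0.14 to 0.37 in DSS, a difference of -0.31 (SE 0.07). Hrh1, the histamine H1 receptor, was at 0.58, 0.35, 0.61 and 0.48 in Sham and from -0.29 through 0.20 to 0.28 in DSS, a difference of -0.40 (SE 0.10). Neither Gcnt2 nor Hrh1 overlapped between the groups, and Control and 5-ASA had nearly the same difference in Hrh1, -0.40 in both. Thy1, a surface protein of T cells, neurons and fibroblasts, was at 2.59, 2.49, 2.73 and 2.45 in Sham and from 1.73 through 2.20 to 2.41 in DSS. Its difference of -0.43 (SE 0.13) was -0.19 with array row as a covariate. Megf6 differed by -0.60, by -0.28 with array row as a covariate and by 0.08 with row and column. Lyrm1 differed by -0.28. Tigd5 at -0.82 and the transcription factor Foxo4 at -0.73 were well above background on all 4 Sham arrays. Among DSS arrays this held for only 4 and 3 of 12, all from Control mice and none from 5-ASA mice. Their levels in DSS mice are therefore close to the detection limit, and those in 5-ASA mice are not measured levels.

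B cell genes were lower in value, with wide spread between mice. Of 20 listed genes 18 were measured, 18 of 18 were lower in both DSS groups, where 36.7% of all genes were, and 8 of 18 (44.4%) had an unadjusted p under 0.05 and lower, against 4.28% of all. The median difference was -1.55, and it was -1.05 in Control, -1.97 in 5-ASA, -1.69 with array row as a covariate, -1.15 within the first row and -4.24 with array row and column as covariates. No member was without overlap. Cd79a, a signalling chain of the B cell receptor, was at -2.20, 2.0, 0.97 and 1.24 in Sham 1 to 4 and from -2.17 through -1.26 to 2.48 in DSS, a difference of -1.41 (SE 0.73). Sham 1 lay at the bottom of the DSS range and Control 4 above every Sham mouse. Fcer2a, the low-affinity IgE receptor of follicular B cells, was at -4.11, -0.08, -1.64 and -0.61 in Sham and from -3.80 through -3.42 to -0.85 in DSS, a difference of -1.53 (SE 0.58).

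Spib, a transcription factor of B cells and of the M cells over follicles, was at 0.20, 2.84, 1.74 and 2.05 in Sham and from -0.53 through 0.14 to 2.68 in DSS, a difference of -1.30 (SE 0.44). Ebf1, which commits progenitors to the B lineage, was at -1.52, -0.71, -1.47 and -1.07 in Sham and from -2.67 through -2.12 to -0.53 in DSS, a difference of -0.83 (SE 0.26). In Ebf1 Sham 1 lay next to Sham 3, and Control 4 again was the highest DSS mouse. The complement receptor Cr2 differed by -2.37 (SE 1.04) and Ms4a1, which encodes CD20, by -2.35 (SE 1.38).

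Genes of lymphoid follicles had the same direction as those of B cells. All 12 measured genes of 15 were lower in both DSS groups, with a median of -1.41 that was -2.12 without Sham 1 and -0.92 without Sham 2. Glycam1, a mucin-like ligand of high endothelial venules, was near the detection limit in most mice. It was at -7.60, 1.42, -0.63 and 0.85 in Sham and from -7.86 through -6.54 to -0.81 in DSS, and was well above background on 3 of 4 Sham arrays (not on that of Sham 1), on 4 of 6 Control arrays and on no 5-ASA array. The fitted difference of -3.87 (SE 1.42) is therefore not a measured fold. Clu, a secreted chaperone abundant in follicular dendritic cells, was at 2.77, 5.76, 5.40 and 5.68 in Sham and from 2.34 through 3.19 to 6.0 in DSS, a difference of -1.48 (SE 0.55). Ccl19, a chemokine of T cell zones, differed by -0.79 (SE 0.34). In Glycam1 and Clu, Sham 1 again resembled the DSS mice.

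These values rest on which mice are read. The mean deviation of the 18 B cell genes was -1.727, 2.699, 1.698 and 2.033 in Sham 1 to 4, from -1.529 through 0.017 to 2.841 in Control and from -1.418 through -1.026 to -0.407 in 5-ASA. All 6 5-ASA mice were below 3 of the 4 Sham mice. Without Sham 1 the list median was -2.61, and without Sham 2 it was -1.04. Plasma cell genes did not share the direction, with 5 of 8 higher and a median of 0.11 that was -0.26 without Sham 1. T cell and cytotoxic genes were lower in 16 of 20, where 49.4% of all genes were, and 11 were lower in both DSS groups. Their median was -0.12, -0.45 without Sham 1 and -0.06 without Sham 3. At an unadjusted p under 0.05, 0 of 20 were lower and 1 was higher. Ifng and Gzmb, the members of smallest p, were higher in both DSS groups. They were well above background on only 1 and 2 of 4 Sham arrays, and on 7 and 8 of 12 DSS arrays. Of the phagocyte NADPH oxidase, 5 of 6 subunits were lower, with a median of -0.555 that was -1.03 without Sham 1 and -0.31 without Sham 2. Ncf1, its cytosolic organiser, was at -2.76, -0.40, -0.90 and -0.93 in Sham and from -2.88 through -2.21 to -0.06 in DSS, with Sham 1 and Control 4 at the extremes as in B cell genes. Follicle genes and B cell genes were high and low in the same mice, and the part of follicle content in the B cell differences was not tested.

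Genes of the type I interferon response were lower by smaller amounts. All 24 listed genes were measured, 22 of 24 had a negative difference and 21 of 24 were lower in both DSS groups. The median was -0.36, -0.33 in Control, -0.42 in 5-ASA and -0.46 with array row as a covariate. It was -0.07 with array row and column as covariates, and -0.58 on slide 1 against -0.10 on slide 2. Only 1 of 24 (4.17%) had an unadjusted p under 0.05 and lower, near the 4.28% of all genes. That gene was Ifih1, the cytosolic RNA sensor MDA5, at 3.04, 2.5, 3.00 and 2.62 in Sham and from 2.32 through 2.49 to 2.65 in DSS, a difference of -0.30 (SE 0.09). Sham 1 and Sham 3 were high, Sham 2 and Sham 4 lay within the DSS range, and with array row and column as covariates Ifih1 was at 0.22. Rsad2, the antiviral enzyme viperin, was at 0.44, -1.1, 0.31 and 0.13 in Sham and from -1.83 through -0.79 to 0.54 in DSS, a difference of -0.66 (SE 0.32). Dhx58, the RNA sensor LGP2, differed by -0.43 (SE 0.21) and Irf7, a transcription factor of the response, by -0.62 (SE 0.37), or by 0.74 with array row and column as covariates. Without Sham 1, which had the highest list level of all mice at 0.978, the median was -0.11.

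The promoter of Rsad2 is shown because interferon-stimulated genes are switched on through the interferon-stimulated response element. It lies at chr12:26456453-26456702 (GRCm38.p6, minus strand, RefSeq), and capitals mark the element, which is GAAA, any 2 bases and GAAA again, read here on the opposite strand, with its first base at -120.
Rsad2: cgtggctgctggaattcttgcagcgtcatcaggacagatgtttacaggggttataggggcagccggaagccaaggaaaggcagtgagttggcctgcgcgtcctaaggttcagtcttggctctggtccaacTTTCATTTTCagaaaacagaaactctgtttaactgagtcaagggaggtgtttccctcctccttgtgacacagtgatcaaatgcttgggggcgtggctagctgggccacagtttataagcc
The element was found on either strand in 7 of 17 promoters of the list (41.2%), against 3.04% of all promoters.

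Clock genes were lower in 13 of 17 measured members, all 13 in both DSS groups. The median was -0.515, -0.50 with array row as a covariate -0.40 within the first row and -0.26 with array row and column as covariates, where 8 of 17 were higher. At an unadjusted p under 0.05 and lower there were 7 of 17 (41.2%), against 4.28% of all genes. The lower members included the output factors that bind D-box elements. Dbp was at 2.95, 4.37, 4.20 and 3.79 in Sham and from 1.03 through 2.88 to 3.52 in DSS, a difference of -1.19 (SE 0.41). Tef, a close relative, was at 4.32, 4.89, 5.10 and 4.65 in Sham and from 2.74 through 4.03 to 4.68 in DSS, a difference of -0.85 (SE 0.28). Usp2, a clock-controlled deubiquitinase, was at 1.02, 1.31, 1.97 and 1.73 in Sham and from -0.09 through 0.68 to 1.60 in DSS, a difference of -0.81 (SE 0.22). In Dbp and Tef 5-ASA 1 and 5-ASA 2 were the lowest mice, and Sham 1 was the lowest Sham mouse in all 3 genes.

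The repressors Per3 at -0.73 (SE 0.29) and Cry2 at -0.54 (SE 0.19) were also lower in value, and Cry2 was at 0.05 with array row and column as covariates. The activators had the other sign, Npas2 at 0.41 (SE 0.19) and Arntl, which encodes BMAL1, at 0.22 (SE 0.25). The list level was from 0.176 to 0.567 in Sham, from -0.156 to 0.278 in Control and from -0.677 to 0.239 in 5-ASA, so Sham and DSS overlapped.

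The promoter of Tef is shown because clock output genes are driven through the E-box CACGTG. It lies at chr15:81802423-81802672 (GRCm38.p6, plus strand, RefSeq), and capitals mark the E-box with its first base at -127.
Tef: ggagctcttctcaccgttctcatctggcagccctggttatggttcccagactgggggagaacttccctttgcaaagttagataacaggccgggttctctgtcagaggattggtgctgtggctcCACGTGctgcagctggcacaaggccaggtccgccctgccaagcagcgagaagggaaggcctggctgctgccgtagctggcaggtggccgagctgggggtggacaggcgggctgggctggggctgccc
The E-box was in 4 of 14 clock promoters (28.6%), against 6.05% of all promoters.

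Injury and defence genes of the epithelium had some of the highest differences and the widest spread. Saa3, an acute-phase protein, was at -2.63, -3.70, -3.43 and -4.35 in Sham and from -3.34 through -1.33 to 0.75 in DSS, a difference of 2.44 (SE 0.63). It was 2.78 in Control, 2.11 in 5-ASA and 2.06 with array row as a covariate, and 5-ASA 4 was the 1 DSS mouse below the highest Sham mouse. Reg3b, an antibacterial lectin, had the highest difference of all genes at 5.02 (SE 1.87). Its levels were -4.14, 0.35, -0.34 and -6.67 in Sham and ran from -4.91 through 3.49 to 7.13 in DSS, so that mice of 1 group differed from each other by more than the groups did. It was well above background on 3 of 4 Sham arrays, and was 3.12 with array row as a covariate. Slpi, an inhibitor of neutrophil proteases, was at 1.98, 2.80, 3.37 and 2.03 in Sham and from 2.68 through 3.85 to 6.11 in DSS, a difference of 1.52 (SE 0.53).

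Pla2g2a, a secreted phospholipase that kills bacteria, was at -1.67, -1.02, -0.20 and -1.37 in Sham and from -0.63 through 1.17 to 2.19 in DSS, a difference of 1.96 (SE 0.50). Pla2g2a was 1.62 in Control and 2.31 in 5-ASA, and only Sham 3 overlapped with the DSS mice. The list of epithelial antimicrobial and acute phase genes had no common direction, with 14 of 21 members higher. Of the 21, 3 were higher at an unadjusted p under 0.05 (14.3%, against 7.04% of all genes). Its median was 0.17, -0.04 with array row as a covariate, 0.43 without Sham 3 and 0.09 without 5-ASA 5. Reg3g differed by 2.20 (SE 1.38), the neutrophil lipocalin Lcn2 by 0.17 (SE 0.33) and complement C3 by -0.43 (SE 0.19). Lcn2 was at -0.62 with array row as a covariate, and C3 at 0.08 with row and column. Cxcl9, a chemokine induced by interferon gamma, differed by 2.06 (SE 0.82), or -0.13 with array row and column as covariates. The whole list of interferon gamma and antigen presentation, Cxcl9 included, had a median of 0.09 with 12 of 22 higher.

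Neutrophil genes were higher in 11 of 19 members with a median of 0.05, and 0 of 19 had an unadjusted p under 0.05 or was called by limma. S100a8, a calprotectin subunit, differed by 1.1 (SE 0.96), 1.75 in Control and 0.45 in 5-ASA, and by -0.29 with array row as a covariate. Ppbp, which encodes a neutrophil-attracting chemokine of platelets, was not well above background on any Sham array and was so on 5 of 12 DSS arrays, none of them from 5-ASA mice. Its mean level was -3.80 in Control, of which 5 of 6 arrays were well above background, and -6.20 in Sham. Control was at least 2.96-fold higher than the detection limit of the Sham arrays (limma adjusted p 0.262) and at least 1.87-fold higher than that of the 5-ASA arrays (limma adjusted p 0.324). Neither Sham nor 5-ASA mice had a measured Ppbp level, so whether the DSS groups share a difference in it cannot be told. Mast cell genes were higher in 8 of 8 measured members, 5 of them in both DSS groups, with a median of 0.67, which was 0.21 with array row as a covariate and -1.22 with row and column. Mcpt2, a protease of mucosal mast cells, was at -4.72, -3.03, -3.01 and -3.69 in Sham and from -3.81 through -2.48 to 0.61 in DSS, a difference of 1.61 (SE 0.66) that was 0.74 with array row as a covariate and -2.21 with row and column.

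Genes of redox and detoxification were split. In the list of xenobiotic and NRF2 targets 13 of 18 were higher with a median of 0.16, while Osgin1, a member, was lower as given above. Nqo1, a quinone reductase, was at 0.40, 0.26, -0.15 and 0.42 in Sham and from 0.13 through 0.60 to 1.1 in DSS, a difference of 0.40 (SE 0.15). Gsr, glutathione reductase, was at 3.73, 3.77, 3.82 and 3.98 in Sham and from 3.90 through 4.28 to 5.01 in DSS, a difference of 0.48 (SE 0.17). Nfe2l2, which encodes NRF2 itself, differed by -0.16 (SE 0.07). Among p53 targets, Pmaip1, the death-promoting protein NOXA, was at 1.86, 2.13, 3.02 and 2.64 in Sham and from 0.97 through 1.49 to 2.36 in DSS. The difference was -0.87 (SE 0.22), nearly the same in Control (-0.84) and 5-ASA (-0.91), and the list median was 0.07.

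Differentiated epithelium showed no common direction. Of 25 absorptive colonocyte genes 12 were higher and 13 lower, with a median of -0.008. An unadjusted p under 0.05 was reached by 4 of them, all lower (16%, against 4.28% of all genes). Slc26a2, a sulphate transporter of colonocytes, was at 2.74, 2.87, 3.25 and 2.94 in Sham and from 1.89 through 2.21 to 3.02 in DSS, a difference of -0.66 (SE 0.18). Only 5-ASA 4 of the DSS mice was above the lowest Sham mouse. Lypd8, an antibacterial surface protein of the upper crypt, differed by -0.27 (SE 0.11), and by 0.26 with array row and column as covariates. Goblet cell genes had a median of 0.09, and stem cell and Wnt target genes one of 0.03 with 13 of 23 higher. In that list Sp5, a Wnt-induced transcription factor, had the highest difference at 1.57 (SE 0.56), -0.07 with array row and column as covariates. Dclk1, a marker of tuft cells, was at -0.75, -0.66, -0.91 and -0.68 in Sham and from -1.29 through -1.04 to -0.85 in DSS, a difference of -0.31 (SE 0.09). Apc, the gene mutated in all 16 mice, was at -1.93, -2.01, -1.92 and -2.32 in Sham and from -2.31 through -2.16 to -1.87 in DSS. Its difference was -0.09 (SE 0.10), 0.31 with array row and column as covariates, and its level does not tell the alleles apart. Timp1, an inhibitor of matrix proteases, differed by 0.48 (SE 0.18), and by 0.22 with array row as a covariate. Reference genes had a median of 0.08, with 10 of 14 higher.

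In the erythroid and smooth muscle lists, the DSS groups mostly lay on opposite sides of Sham. Erythroid genes were higher in 9 of 9, but the median was 0.95 in Control and -0.545 in 5-ASA, and 8 of 9 lay on opposite sides of Sham. The pooled median of 0.20 was -0.035 without Control 1, whose list level of 2.64 was the highest of Control. It was 1.06 with array row as a covariate, 1.33 within the first row, -0.13 on slide 1 and 0.58 on slide 2. Slc4a1, the anion exchanger of red cells, was at -2.18, -3.84, -3.87 and -3.76 in Sham, from -3.42 to 0.36 in Control and from -4.70 to -3.05 in 5-ASA. Smooth muscle genes were lower in 17 of 17 with a median of -0.11, but -0.30 in Control and 0.07 in 5-ASA, 1 of 17 was on the same side in both groups, and the median was 0.255 with array row as a covariate. Without Sham 1 the smooth muscle median was 0.13. Without covariates, neither list thus had a direction common to the DSS groups. The lists were not tested between the groups, limma called 0 genes between 5-ASA and Control, and all 5-ASA arrays lay in the second row. Fibroblast and matrix genes were lower in 19 of 23, 13 of them in both DSS groups, with a median of -0.17 that was -0.31 in Control, -0.03 in 5-ASA and 0.08 with array row as a covariate.

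Proteasome subunits and mitochondrial ribosomal proteins were counted after 4 members of each had been seen among the 91 genes without overlap, so their counts are a description and support nothing. Over all genes tested 50.6% were higher, 7.04% were so at an unadjusted p under 0.05, and 0.334% were higher without overlap. The proteasome subunits Psmc3, Psmc4, Psmd2 and Psmb3 were higher in every DSS mouse than in every Sham mouse, with differences of 0.20, 0.34, 0.26 and 0.24. Over 36 measured proteasome subunits, 35 were higher, 15 of them at an unadjusted p under 0.05, and the median difference was 0.18. It was 0.18 in Control, 0.19 in 5-ASA, 0.20 with array row as a covariate and 0.14 with quantile scaling. Over 74 mitochondrial ribosomal proteins, 71 were higher, 27 of them at an unadjusted p under 0.05, with a median of 0.15. The differences are small, and members of a family are measured on the same arrays.

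**Figure D4:**
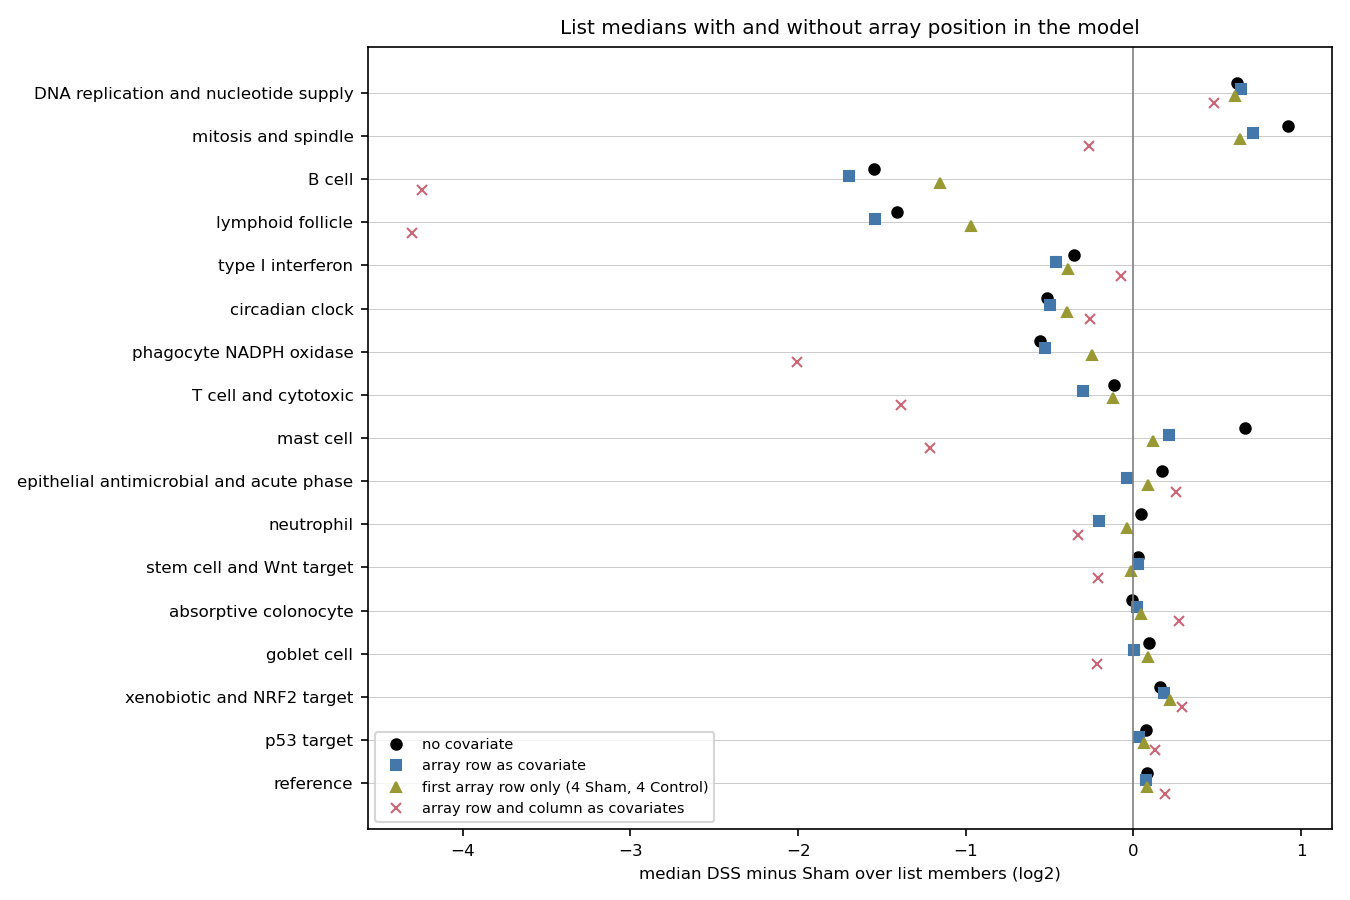
Median DSS minus Sham over the measured members of 17 gene lists, on the log2 scale, in the model without covariates (black circles), with array row as a covariate (blue squares), within the first array row (green triangles) and with array row and column as covariates (red crosses). The replication, B cell, lymphoid follicle, type I interferon and circadian clock medians keep their sign in all 4. So do the phagocyte NADPH oxidase, T cell and cytotoxic, xenobiotic and NRF2 target, p53 target and reference medians. The mitosis median turns from 0.92 to -0.27 in the last.

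Set against array position and the other settings, the list medians differed in how far they moved. The replication median kept its sign under all 33 alternative settings, between 0.48 and 0.715. The B cell, lymphoid follicle, type I interferon and clock medians also kept theirs. The same held for the reference, p53 target, xenobiotic and NRF2 target, enteroendocrine, T cell and cytotoxic, and phagocyte NADPH oxidase medians. A kept sign is therefore not particular to the lists named first. The mitosis median kept its sign under 32 of 33. The medians of mast cell, antimicrobial and neutrophil-recruiting genes came to 0.21, -0.04 and -0.01 with array row as a covariate, from 0.67, 0.17 and 0.68. These shifts cannot be told apart from differences between first-row and second-row Control mice. With array row as a covariate 531 genes had an unadjusted p under 0.05, and limma called 0.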

How the data were processed

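Non-tumour colon RNA of 16 mice was measured on 16 1-colour Agilent arrays, 1 mouse per array. Per the file headers, the deposited spot intensities were extracted with Agilent Feature Extraction 10.10.1.1, which subtracted background and removed trends within the array, and probe coordinates are on mm9. The deposited series value table, whose making is not stated, behaved as log2 of the same intensities minus an array shift and the Sham median of each probe (r from 0.992 to 0.998 with the scanner values so treated), so scale, centring and direction are inferred. Its column medians were -0.000851, -0.0461, 0.0709 and -0.00654 in Sham 1 to 4, -0.0323, -0.0616, 0.206, -0.188, -0.0434 and 0.147 in Control 1 to 6, and 0.223, 0.177, 0.135, 0.136, 0.113 and 0.111 in 5-ASA 1 to 6.

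From the processed signal of non-control spots, log2 minus the array's 75th percentile was computed. The outer 12 of 384 spot rows at each end were left out, 32829 of 55681 probes were kept because 4 or more of the 16 arrays flagged them well above background, and each gene was represented by its brightest probe. Of the 55681 probes 27656 were named by accession and 28025 kept the name in the files. limma 3.58.1 in R 4.3.3 fitted 3 group means, and the contrast was the mean of Control and 5-ASA minus Sham, called at a Benjamini-Hochberg adjusted p up to 0.05 over 23362 genes. The procedure was tested on simulated data. A gene was without overlap where all 12 DSS arrays lay above, or all below, all 4 Sham arrays. Precision is limited by the number of arrays.

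The members and gene lists were chosen with earlier results of these data known, so counts over them are descriptions. Named genes were, per direction, up to 12 genes without overlap with the smallest p (named by accession), up to 3 genes of smallest p per list, and a fixed list. Pcna, Rrm2, Foxm1, Tfdp1, Cr2, Ms4a1, Cry2, Per3, Npas2, Arntl, Irf7, Nfe2l2, Reg3g, C3, Psmc3, Psmc4, Psmd2 and Psmb3 lie outside this rule and were chosen after their values were seen. Alternatives covered background, scaling, filters, probes per gene, slide, array position, replicate number, array weights, the value table and each mouse left out.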

Additional observations from a re-analysis of the deposited data

Results flagged for a closer look

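In 16 of 273 groups of 4 or 6 mice examined, 1 mouse lay apart from the rest of its group by more than Dixon's 95% critical value, where chance gives about 1 in 20. The values are log2 levels, each with its nearest neighbour in the group. Sham 1 was apart in 3 genes. Clu was at 2.77 against 5.4 or more in the other Sham mice, the B cell gene Ms4a1 at -5.78 against 1.96 or more, and the red cell gene Slc4a1 at -2.18 against -3.76 or less. Sham 2 was apart in S100a8, at -1.27 against -3.88.

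Control 4 was high in the B cell genes Ebf1 (-0.53 against -1.79) and Spib (2.68 against 1) and in the proteasome subunit Psmc3 (6.22 against 6.08). Control 3 was low in Tigd5, at -5.42 against -4.79, and Control 6 was high in the mast cell protease Mcpt2, at 0.03 against -2.14.

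5-ASA 4 was apart in 3 genes and in the mean deviation of 1 list. Pla2g2a was at -0.29 against 1.13, Slc26a2 at 3.02 against 2.25 and Sp5 at -5.9 against -3.33, and the epithelial antimicrobial and acute phase list was at -0.98 against 0.12. 5-ASA 1 was low in Tigd5 (-5.69 against -4.93) and in Rsad2 (-1.83 against -1), and 5-ASA 2 was high in Glycam1 (-4.25 against -6.41). Glycam1 was not well above background on any 5-ASA array.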

How the results depend on the processing

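Ifng and Gzmb were not followed through the alternatives. Of 82 other genes described, 66 kept their sign under all 33 alternatives and 80 under all but array row and column together. Under row and column as covariates the difference was -0.074 for Ifitm2, 0.078 for Megf6, -0.241 for Mki67, -0.525 for Ube2c, -0.1 for Ect2, 0.224 for Ifih1, -0.13 for Cxcl9, -2.206 for Mcpt2, 0.307 for Apc, 0.049 for Cry2, 0.736 for Irf7, -0.07 for Sp5, -0.632 for Lcn2, 0.078 for C3, -1.185 for S100a8 and 0.262 for Lypd8. With row alone it was -0.619 for Lcn2 and -0.286 for S100a8, and within slide 1 it was -0.152 for Lcn2. Values under row and column are imprecise, as the larger standard errors of Cenpm and Mcm8 given above show. The cause was not tested.

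No gene was called except with the outer spot rows kept (16 called, 1 higher and 15 lower, Mcm8 and Osgin1 included), within slide 1 (1 called, 0 higher and 1 lower) and without Sham 2 (1 called, lower). Leaving out 1 mouse gave 0 to 1 called, 1571 to 3584 genes at an unadjusted p under 0.05, and 92 to 469 genes without overlap (78 to 395 higher, 13 to 105 lower). Genes at an unadjusted p under 0.05 numbered 4438 with no filter on dim probes, 3972 with array weights, 1489 within the first array row, 1455 within slide 1, 531 with array row and 472 with row and column as covariates. Genes without overlap numbered 32 (14 higher, 18 lower) with median scaling, 2630 (1842 higher, 788 lower) within slide 1, 2649 (1463 higher, 1186 lower) within slide 2 and 1094 (866 higher, 228 lower) within the first array row, where fewer mice are compared. Those lower numbered 26 with normexp background, 26 with the outer rows kept and 22 with quantile scaling.

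The replicate number as a replicate block gave 0 called, a smallest adjusted p of 0.171 and 2902 genes at an unadjusted p under 0.05. Same-numbered mice deviated together (r over 0.1) in 9 of 14 pairs (median r 0.146) and differently numbered mice in 24 of 70 (median r -0.071). Of the same-numbered pairs 12 also shared a slide, 9 of them with r over 0.1, and the 2 pairs on different slides had r of -0.245 and -0.202, so number and slide cannot be told apart. As not every pair passed 0.1, the numbers were not taken to pair the mice. With slide as a block limma called 0 genes, and 3476 had an unadjusted p under 0.05.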
